A study of Mus musculus with 4 samples.

Results

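The 9 genes described here are signal, receptor and matrix genes of the embryonic heart, and most of them take part in building trabeculae or cardiac jelly. They are the ligand genes *Nrg1* and *Hbegf*, the receptor genes *Egfr*, *Erbb2*, *Erbb3* and *Erbb4*, the growth factor gene *Bmp10*, and the matrix genes *Has2* and *Vcan*. They were chosen by name, with earlier results of these data known. Every peak that touched the gene body or lay within 10 kb of a transcription start site (TSS) of the gene was counted and placed. Open chromatin had been mapped by ATAC-seq, in which the Tn5 transposase cuts and tags accessible DNA, in hearts at embryonic day 9.5. Hearts were wild type (WT) or came from *Smyd1-KO* embryos, which lack the histone methyltransferase SMYD1 in the whole body through a conventional null allele. Each genotype had 2 libraries, 4 libraries in all, each from a pool of 4 hearts of either sex from which 40000 viable cells were taken. Of the 25745 peaks listed as higher in *Smyd1-KO* hearts, 31 were at these genes. Of the 106 peaks listed as higher in WT hearts, 0 were.

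Trabeculae are the ridges of muscle that grow into the lumen of the young ventricle. NRG1 is released by the endocardium and binds ERBB4 or ERBB3 on neighbouring cells. ERBB2 binds no ligand of its own and signals as the partner of ERBB3 or ERBB4. BMP10 is secreted by trabecular cardiomyocytes and keeps them dividing. Hyaluronan, made by the synthase HAS2, and the proteoglycan versican, the product of *Vcan*, form the cardiac jelly between endocardium and myocardium through which these signals pass. Mice lacking *Nrg1*, *Erbb2*, *Erbb4*, *Bmp10*, *Has2* or *Vcan* fail to form normal trabeculae or cardiac jelly.

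All 9 genes had at least 1 *Smyd1-KO*-enriched peak under the counting rule. The background was high: by the same rule 13733 of the 21938 protein-coding genes (62.6%) had one. All 9 also had a peak within 3 kb of one of their TSSs, where the background was 51.2%. *Nrg1* (1069.5 kb) and *Erbb4* (1075.9 kb) are very long, and the background rises with length. A peak was present at 50.9% of protein-coding genes under 20 kb, at 72.4% of those from 20 to 100 kb, at 87.5% of those from 100 to 500 kb and at 90.9% of those of 500 kb or more. Within 3 kb of a TSS the shares in the same bands were, in that order, 40.6%, 62.1%, 68.5% and 63.5%. A WT-enriched peak was present at 34 protein-coding genes, or 0.155%, so a count of 0 among 9 genes stood close to the background. The 9 genes were chosen by name with earlier results of these data known. No test was made of whether they differ from other genes.

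The libraries of a genotype had been combined before the lists were made, so no peak has a value per library, a replicate error or a p-value. The value of a peak, called its score, is the tag value deposited for its 149 bp in *Smyd1-KO* hearts. It comes in steps of 0.5 tags, and how the 0.5 steps arise is not given in the sources used here. Across the list, scores ran from 24.5 to 18591, and their median was 180.5 (quartiles 81 and 410). The scores of the 31 peaks ranged from 35 to 646.5 with a median of 140.5, and 12 of them reached the median of the list. Peaks that did not differ between the genotypes were not analysed here, so an open promoter shared by both genotypes leaves no trace in these counts.

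**Figure D1:**
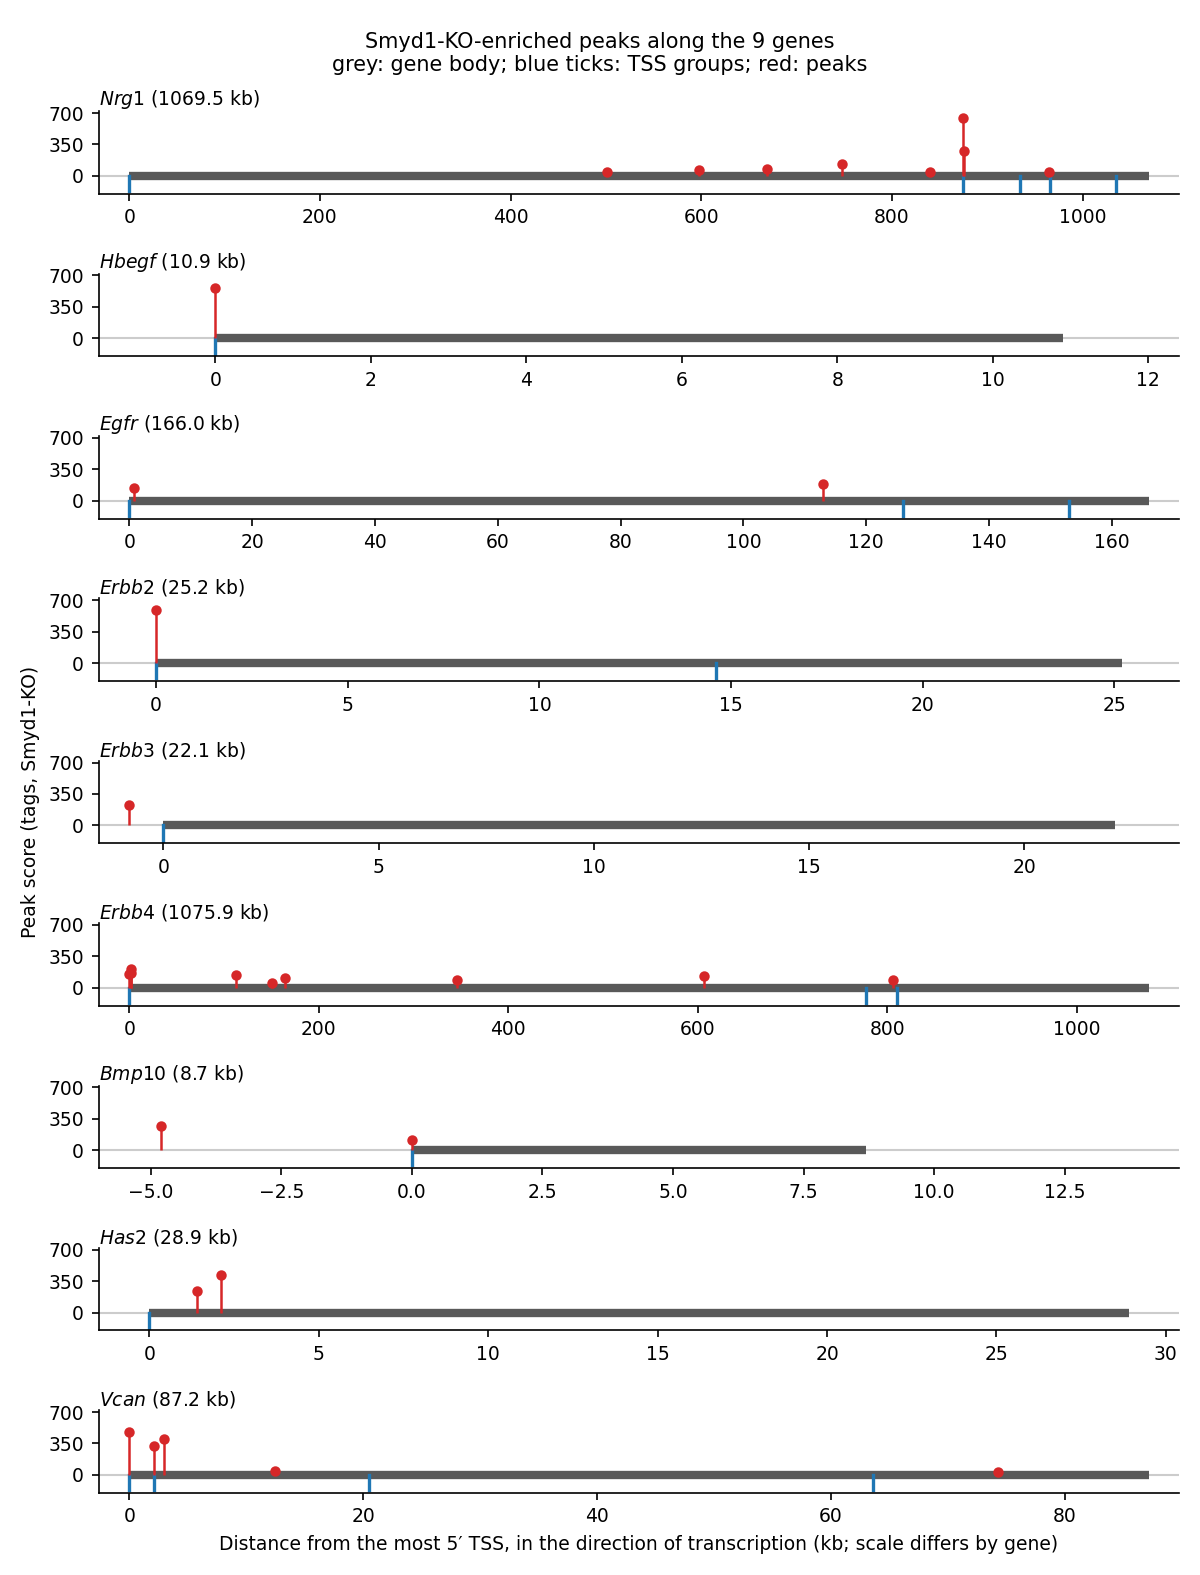
*Smyd1-KO*-enriched peaks (red, height is the score in tags) along each of the 9 genes (grey bar) against the distance in kb from the most 5′ TSS, with groups of TSSs as blue ticks. *Nrg1* carries its tallest peak, with a score of 646.5, at 874.4 kb, whereas in *Hbegf*, *Erbb2* and *Vcan* the tallest peak covers the most 5′ TSS.

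*Nrg1*, which encodes neuregulin 1, lies on chromosome 8 (mm10 chr8:31814551-32884029, minus strand) and spans 1069.5 kb. It had 8 *Smyd1-KO*-enriched peaks. GENCODE gives it 18 transcripts, whose TSSs fall into 5 groups when TSSs within 1 kb of each other are joined. The peaks were not spread evenly over these groups. The most 5′ group, from which the longest transcripts start, had no peak within 10 kb, and the nearest peak was 501058 bp away inside the gene. The second group, 874.5 kb into the gene, starts 8 transcripts, of which 6 are protein-coding. Both of the highest *Nrg1* peaks were there: a score of 646.5, higher than 88.6% of the list, at 110 bp upstream, and a score of 277.5 at 355 bp downstream. The latter peak also lay 102 bp from the TSS of the long noncoding RNA gene *Gm26578*. A weaker peak, with a score of 48.5, was 1185 bp upstream of the fourth group, which starts 6 transcripts. The other 5 peaks, with scores of 134.5, 80, 63.5, 47.5 and 40, lay in intron 1 of the longest transcript, between 34933 and 373165 bp upstream of the second group. All 5 were below the median of the list, and none of the 8 peaks touched an exon. The strongest peak and the highest of the 5 intronic peaks are shown as the highest peaks beside a TSS and away from one. These and all later sequences read 5′ to 3′ on the plus strand of mm10, with motif matches in capitals, and a match on the minus strand appears as its reverse complement. Capitals mark the SP1 string GGGCGG in the first and a pair of overlapping GATA strings in the second.
*Nrg1* peak upstream of the second TSS group, chr8:32009601-32009749: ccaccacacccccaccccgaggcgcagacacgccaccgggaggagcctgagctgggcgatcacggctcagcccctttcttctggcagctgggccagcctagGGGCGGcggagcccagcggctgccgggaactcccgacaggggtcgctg
*Nrg1* intron 1 peak, chr8:32136161-32136309: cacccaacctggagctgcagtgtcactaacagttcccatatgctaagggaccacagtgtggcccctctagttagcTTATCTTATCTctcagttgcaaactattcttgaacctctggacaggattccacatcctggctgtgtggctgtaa

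*Hbegf* encodes heparin-binding EGF-like growth factor, a ligand of EGFR and ERBB4 that limits cell proliferation in the forming valves. The gene lies on chromosome 18 (chr18:36504927-36515805, minus strand), is 10.9 kb long and had 1 peak. That peak covered the most 5′ TSS and had a score of 564, above 85.1% of the list. No further *Hbegf* peak was found in the gene body.

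The 4 receptor genes had 13 peaks, of which *Erbb4* held 9. *Erbb2* (chr11:98412470-98437716, plus strand) had 1 peak, which covered its TSS and had a score of 591.5, above 86.3% of the list. This was the second highest score among the 31 peaks. *Erbb3* (chr10:128567523-128589652, minus strand) also had 1 peak, 755 bp upstream of its only annotated TSS, with a score of 224.5. *Egfr* (chr11:16752203-16918158, plus strand) had 2 peaks, 642 bp downstream of its most 5′ TSS with a score of 140.5, and in intron 4, 12856 bp upstream of an internal TSS, with a score of 180. Both *Egfr* scores were below the list median of 180.5, and *Egfr* was the gene without a peak when the list was limited to peaks at or above that median.

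The stretch of the *Erbb2* peak that lies upstream of the transcript and the whole *Erbb3* and *Egfr* intron 4 peaks are given as the regions that represent each receptor. Capitals mark the TEAD string GGAATG in *Erbb2*, and a GATA string with an RBPJ string 2 bases after it in *Egfr*. RBPJ is the DNA-binding partner of the NOTCH receptors.
*Erbb2* promoter side of the peak, chr11:98412381-98412469: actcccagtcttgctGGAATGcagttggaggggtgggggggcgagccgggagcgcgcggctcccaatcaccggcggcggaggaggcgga
*Erbb3* upstream peak, chr10:128590407-128590555: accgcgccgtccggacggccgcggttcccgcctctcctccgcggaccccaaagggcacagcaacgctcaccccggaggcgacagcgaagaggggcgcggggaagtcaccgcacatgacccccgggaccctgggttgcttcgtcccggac
*Egfr* intron 4 peak, chr11:16865146-16865294: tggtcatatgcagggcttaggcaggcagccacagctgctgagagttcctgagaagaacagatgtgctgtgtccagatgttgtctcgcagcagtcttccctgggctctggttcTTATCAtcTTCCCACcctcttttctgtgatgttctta

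*Erbb4*, the main receptor for NRG1 in cardiomyocytes, lies on chromosome 1 (chr1:68032186-69108059, minus strand) and spans 1075.9 kb. Its TSSs fell into 3 groups, and 3 of the 9 peaks were within 3 kb of the most 5′ group. These had scores of 155.5 at 415 bp upstream, 162 at 1054 bp downstream and 209.5 at 1621 bp downstream. No *Erbb4* peak covered a TSS of the gene. The peaks downstream were 38 and 605 bp from the TSS of *Gm16076*, a noncoding transcript annotated within *Erbb4*. The other 6 peaks were intronic, with scores of 58 to 138. In introns 1 and 3 the peaks had scores of 138, 58, 104, 87 and 129, and in intron 14 a peak with a score of 86 was 3481 bp from an internal noncoding TSS. Scores at *Erbb4* thus stayed within 58 to 209.5, a narrower range than the 40 to 646.5 of *Nrg1*, a gene of nearly the same length.

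A pair of the intronic *Erbb4* peaks lay in repeated DNA. All of their bases are soft-masked as repeats in the genome sequence, and 67.8% and 58.5% of their 32-base words occur more than once in the genome. At *Nrg1* such words made up 16.1% and 5.93% of the intron 1 peaks with scores of 80 and 40. Reads from such places can have several possible positions, and how the authors treated those reads is not given in the sources used here. The sequences of the pair share a run of 27 bases in opposite orientation, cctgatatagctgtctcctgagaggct, which stands as written in the first and as its reverse complement in the second. They are shown with the *Erbb4* peak upstream of the most 5′ TSS, which had no repeated word. Capitals mark NK2 strings in the first and second, and an RBPJ and an SP1 string in the third.
*Erbb4* intron 14 repeat peak, chr1:68301799-68301947: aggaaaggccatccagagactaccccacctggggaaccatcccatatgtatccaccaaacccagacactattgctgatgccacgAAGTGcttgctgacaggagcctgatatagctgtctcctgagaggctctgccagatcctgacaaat
*Erbb4* intron 1 repeat peak, chr1:68762053-68762201: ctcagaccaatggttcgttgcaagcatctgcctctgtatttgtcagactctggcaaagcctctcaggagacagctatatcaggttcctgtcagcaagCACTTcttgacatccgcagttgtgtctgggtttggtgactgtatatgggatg
*Erbb4* upstream peak, chr1:69108474-69108622: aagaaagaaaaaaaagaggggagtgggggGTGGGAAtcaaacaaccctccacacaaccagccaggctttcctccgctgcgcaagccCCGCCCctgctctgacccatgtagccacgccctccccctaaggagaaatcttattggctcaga

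The number of peaks at the 2 largest genes has to be read against their length. Only 0.479% of protein-coding genes had 8 or more peaks and 0.301% had 9 or more. Among the 230 protein-coding genes of 500 kb or more, however, the median was 4 peaks, and 43 genes (18.7%) had as many as *Nrg1* and 31 (13.5%) as many as *Erbb4*. The counts at *Nrg1* and *Erbb4* fell to 3 and 2 when a peak was counted only for the gene with the nearest TSS, to 2 and 1 among peaks with scores at or above the list median, and to 3 each within 3 kb of a TSS. Per 100 kb of gene body and flanks, *Nrg1* had 0.741 and *Erbb4* 0.829 peaks, below the median of 1.75 over all protein-coding genes and above the median of 0.457 of genes of 500 kb or more. *Nrg3*, a neuregulin gene of 1100 kb that was not among the 9 genes, had no peak.

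**Figure D2:**
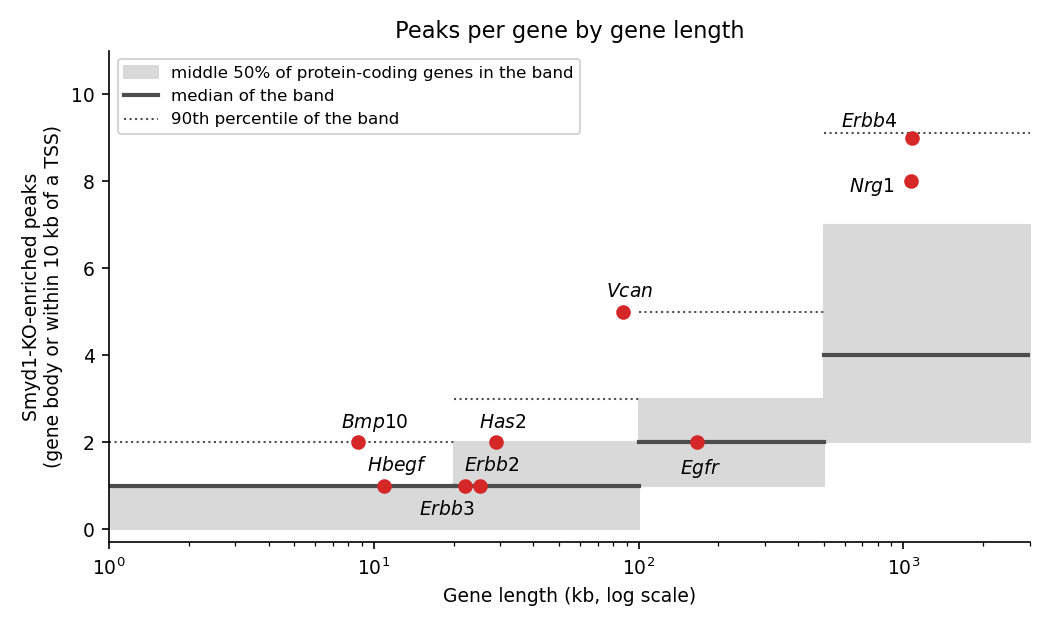
*Smyd1-KO*-enriched peaks per gene against gene length in kb on a log axis, with the 9 genes in red and, for 4 bands of gene length, the median (thick line), the middle 50% (grey) and the 90th percentile (dotted) of all protein-coding genes. *Vcan*, with 5 peaks, lies above the 90th percentile of 3 in its band, and *Nrg1* and *Erbb4*, with 8 and 9, lie above the median of 4 and below the 90th percentile of 9.1 in theirs.

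*Bmp10* (chr6:87428994-87437677, plus strand) is the shortest of the 9 genes at 8.7 kb and has a single annotated TSS. It had 2 peaks. The peak over the TSS, which reached into the first coding exon, had a score of 116. The peak 4696 bp upstream had a score of 272.5, above 61.9% of the list. The distal peak was the higher one at *Bmp10*, as also at *Egfr*, and it was the only one of the 15 peaks farther than 3 kb from a TSS of its gene to reach the list median. At 10 peaks per 100 kb, the locus was denser than those of the other 8 genes, and 4.23% of protein-coding genes were as dense. Density falls with gene length, and among the 11779 protein-coding genes under 20 kb, where the median was 2.95 per 100 kb, 7.42% were as dense and 20.2% had 2 or more peaks. The density of *Bmp10* rests on 2 peaks in a window of 20 kb. The GATA string, a 6-base site of the cardiac GATA factors, occurred at 2 places in the distal peak and at 1 in the promoter peak, shown in capitals. The second sequence is limited to the part upstream of the transcript.
*Bmp10* distal peak, chr6:87424150-87424298: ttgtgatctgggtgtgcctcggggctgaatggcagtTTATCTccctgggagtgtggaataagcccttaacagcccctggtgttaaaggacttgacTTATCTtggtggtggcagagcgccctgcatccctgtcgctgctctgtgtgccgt
*Bmp10* promoter side of the peak, chr6:87428911-87428993: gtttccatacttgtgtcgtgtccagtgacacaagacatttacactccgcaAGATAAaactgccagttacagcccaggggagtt

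*Has2* (chr15:56665627-56694539, minus strand, 28.9 kb) had 2 peaks, both in intron 1. Their scores were 239 at 1370 bp and 423.5 at 2043 bp downstream of the TSS, above 57.9% and 76% of the list. The *Has2* TSS itself was not covered. Both peaks were closer to the TSS of the antisense transcript *Has2os*, at 383 and 1056 bp, than to that of *Has2*. Accessibility has no strand, so the peaks cannot be assigned to one of the pair. The higher of these peaks is shown as the strongest region at *Has2*; none of the strings searched occurred in it.
*Has2* intron 1 peak, chr15:56692348-56692496: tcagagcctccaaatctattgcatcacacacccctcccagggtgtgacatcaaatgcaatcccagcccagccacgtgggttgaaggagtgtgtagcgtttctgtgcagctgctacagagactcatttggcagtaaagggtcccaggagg

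*Vcan* (chr13:89655312-89742509, minus strand, 87.2 kb) had 5 peaks, and 2.46% of all protein-coding genes had 5 or more. Among those of 20 to 100 kb, the median was 1 peak and the 90th percentile was 3. Of the 5 *Vcan* peaks, 3 were clustered at the 5′ end. A score of 473.5 was found over the most 5′ TSS, 327 over a second TSS 2.1 kb into the gene, and 401 at 854 bp beyond that second TSS. The last of these also covered the TSS of the antisense gene *Gm4117*. All 3 were above the list median, the highest above 79.8% of the list. The other 2 peaks, in introns 2 and 12, had scores of 44 and 35, and the latter was the lowest of all 31. *Vcan* thus had 3 strong peaks within 3 kb of a TSS and 2 weak ones at 7957 and 9866 bp from a TSS, with no score between 44 and 327. The upstream part of the peak at the most 5′ TSS is shown with its SP1 string, and SP1 strings were also found in the other peaks of the 5′ cluster.
*Vcan* promoter side of the first peak, chr13:89742510-89742603: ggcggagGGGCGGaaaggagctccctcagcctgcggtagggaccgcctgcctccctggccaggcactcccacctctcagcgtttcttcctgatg

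**Figure D3:**
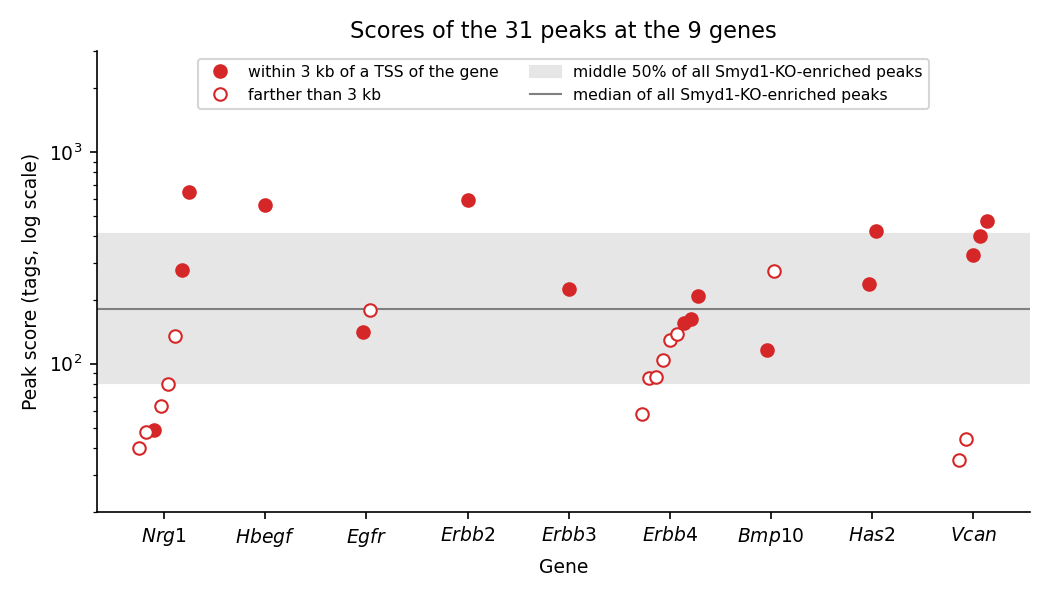
Scores of the 31 *Smyd1-KO*-enriched peaks (tags, log axis) by gene, filled within 3 kb of a TSS of the gene and open farther away, over the middle 50% (grey band) and the median (line) of all 25745 peaks. *Nrg1*, *Hbegf*, *Erbb2*, *Has2* and *Vcan* each have a peak above the upper quartile of 410, and no peak of *Egfr*, *Erbb3*, *Erbb4* or *Bmp10* reaches it.

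Over the 9 genes, scores were mostly higher near a TSS. At most 3 kb from a TSS of their gene lay 16 peaks, which had scores of 48.5 to 646.5 with a median of 258.25, and 11 of them reached the list median. The 15 peaks farther away had scores of 35 to 272.5 with a median of 86, and 1 reached it. The ranges overlapped. The whole list showed a like order, with a median score of 365.5 for the 13986 peaks within 3 kb of any TSS and of 87 for the 11759 peaks farther away, so the order is not particular to these genes. The share of peaks within 3 kb was 51.6% at the 9 genes and 54.3% in the list, where distance was measured to the TSSs of any gene.

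Base composition differed in the same way. The median GC content was 65.5% in the 16 near peaks and 49% in the 15 farther ones, and in the list it was 65.1% and 52.3%. The ratio of observed to expected CpG dinucleotides had medians of 0.658 and 0.144, against 0.739 and 0.207 in the list. Of the 31 peaks, 23 lay in introns, and 27 held no repeated 32-base word. The TSS nearest to the peak belonged to the same gene for 15 peaks and to another gene for 16, and none of those other genes was protein-coding. Of the 21 TSS groups of the 9 genes, 9 had a peak within 1 kb.

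**Figure D4:**
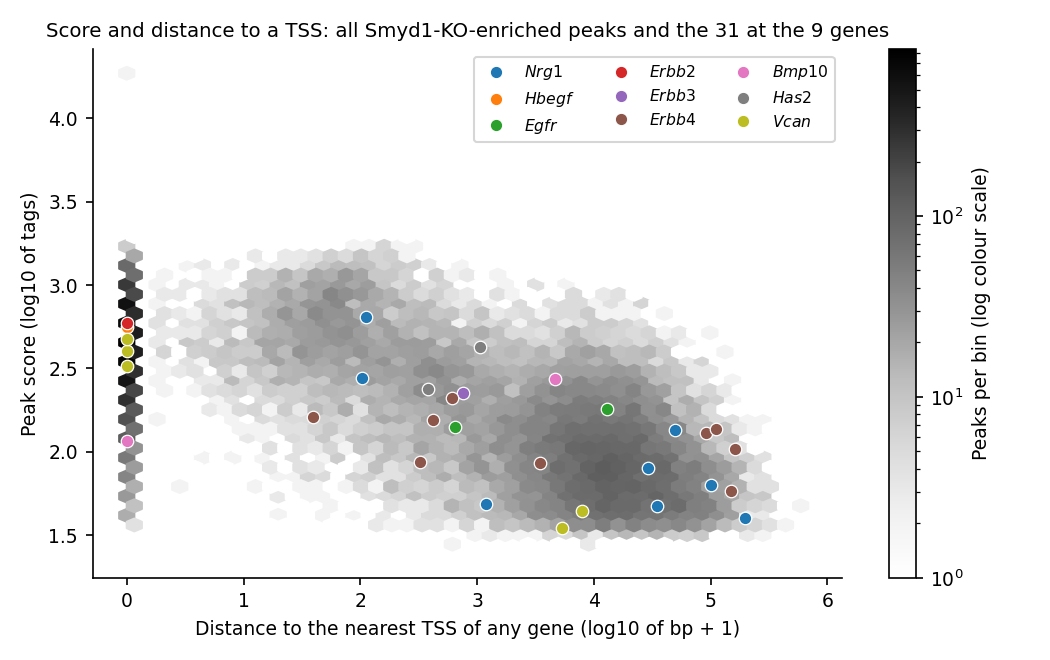
Score (log10 of tags) against distance to the nearest TSS of any gene (log10 of bp + 1) for all 25745 *Smyd1-KO*-enriched peaks (grey hexagons, darker where more peaks fall) and the 31 peaks at the 9 genes (coloured by gene). The 31 points lie within the grey cloud, with the highest scores at short distances.

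Short motif strings were searched on both strands of the 149 bp. The GATA strings AGATAA and TGATAA occurred in 7 of the 31 peaks (22.6%) and in 13.4% of the list. Within the list they were in 22.6% of the distal peaks, those over 3 kb away from every TSS, and in 5.64% of the others. The 7 peaks were at *Nrg1* and *Erbb4* with 2 each, at *Egfr* with 1 and at *Bmp10* with 2. The same letters in another order, ATAAGA, used as a control, occurred in 6 of the 31 peaks (19.4%) against 4.28% of the list; the control thus stood further above its share of the list than the GATA strings did, and the GATA count cannot be read as more than the letters found. Where only matches that did not overlap a GATA string were counted, the control occurred in 3 of 31 peaks and in 2.25% of the list. The SP1 string GGGCGG was found in 6 peaks (19.4%, list 29.1%), at *Nrg1*, *Hbegf*, *Erbb4* and *Vcan*. The NK2 string AAGTG, part of the site of NKX2-5, was found in 7 peaks (22.6%, list 26.3%). Among peaks with at most 10% repeated 32-base words, it was found in 4. The TEAD string was found in 3 peaks (9.68%, list 10.6%). The T-box string AGGTGT, the RBPJ string GTGGGAA and the MEF2 pattern, which reads CTA, then 4 bases of any kind, then TAG, occurred in 2 peaks each (6.45%), against 5.5%, 2.97% and 2.61% of the list. The CTCF pattern, which reads CCA, 2 bases of any kind, AG, 2 of any kind and GGC, occurred in none of the 31 and in 7.1% of the list. A match is a description of letters and does not show that a factor was bound.

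Between 10 and 50 kb from a TSS and outside the gene bodies, the *Smyd1-KO* list held 14 further peaks and the WT list held 1. All of the 14 except a pair at *Has2* were nearer to the TSS of another gene. At *Erbb2* the 4 peaks were nearest to *Pgap3*, *Mien1* and *Grb7*, and at *Erbb3* the highest of 4, with a score of 1737.5, was 116 bp from the TSS of *Pa2g4*. At *Hbegf* a peak with a score of 1701 was 159 bp from *Ankhd1*. At *Has2* there were 2 peaks at 23099 and 26157 bp upstream that had *Has2* as their nearest gene and scores of 132 and 165. The WT-enriched peak lay 28459 bp downstream of the *Bmp10* TSS (chr6:87457453-87457601) with a score of 253.9. It was 6046 bp from the nearest TSS, of *Arhgap25*, and 73.7% of its 32-base words occur more than once in the genome. Scores of the lists are not compared with each other, because those of the WT list do not fall on the same steps.

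Other genes of the same pathways were taken from 7 lists, 60 genes in all. Of these, 48 (80%) had a *Smyd1-KO*-enriched peak in the gene body or within 10 kb of a TSS, 42 (70%) had one within 3 kb of a TSS, and 0 had a WT-enriched peak. Over all protein-coding genes these shares were 62.6% and 51.2%, and over those of 20 to 100 kb they were 72.4% and 62.1%. No excess is read from the counts. The share was lowest for the other EGF-family ligands, with 5 of 9. *Nrg2* had 5 peaks with scores of up to 454, *Egf* and *Tgfa* 3 each, and *Areg* and *Btc* 1 each, whereas *Epgn*, *Ereg*, *Nrg3* and *Nrg4* had none. All 4 ligand-shedding proteases (*Adam10*, *Adam17*, *Adam19* and *Bace1*), which release membrane-bound ligands, had a peak, with 2 at *Bace1* and the highest score, 849, at *Adam17*. Of 11 adaptors and kinases downstream of the ErbB receptors, 10 had a peak. *Shc1*, an adaptor, had 4 with scores of up to 1087.5, and *Ptpn11*, which encodes the phosphatase SHP2, had none. Of 5 feedback regulators, 4 had a peak, with 3 each at *Lrig1*, where the highest score was 1282.5, and *Lrig3*. The exception was *Errfi1*, which encodes an inhibitor of the receptor kinases.

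On the BMP10 side, 11 of 14 receptors, SMADs and targets had a peak. The target genes *Id1*, *Id2* and *Id3*, which are only 1.16 to 3.34 kb long, had 4, 3 and 3 peaks, and the highest score was 860.5 at *Id2*. The co-receptor gene *Eng*, the cell cycle inhibitor gene *Cdkn1c* and the transcription factor gene *Tbx20* had none. Of 11 partners of hyaluronan and versican, 8 had a peak. *Adamts9*, whose product cleaves versican, had 7 peaks, *Adamts1*, another versican protease gene, had 3, and *Hapln1*, which encodes the link protein that holds hyaluronan and versican together, had 2. The highest score, 1098, was at *Ugdh*, whose product makes a precursor of hyaluronan. The other synthase genes *Has1* and *Has3* and the hyaluronan receptor gene *Hmmr* had none. All 6 endocardial genes upstream of *Nrg1* and *Bmp10* had a peak, with 5 at *Rbpj* and 1 each at *Notch1*, *Dll4*, *Efnb2*, *Ephb4* and *Klf2*, of which *Klf2* had the highest score, 866.5. Gene length differs between the lists, and no test was made between them.

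**Figure D5:**
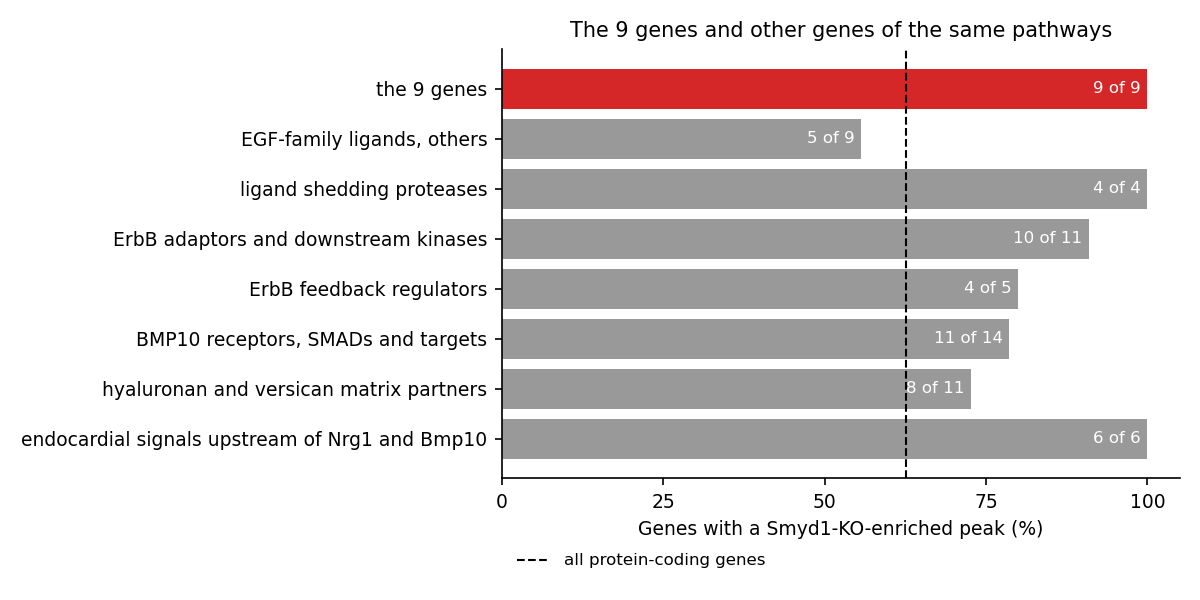
Share of genes (%) with a *Smyd1-KO*-enriched peak in the gene body or within 10 kb of a TSS, for the 9 genes (red) and 7 lists of other genes of the same pathways (grey), with counts in the bars and a dashed line at the 62.6% of all protein-coding genes. The other EGF-family ligands lie below the line and the other lists above it.

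Whole hearts were used, so a higher share of one cell type and more open chromatin per cell cannot be told apart. *Smyd1-KO*-enriched peaks were found by the same rule at 6 of 6 cardiomyocyte, 5 of 6 endothelial and endocardial, 3 of 5 epicardial and mesenchymal and 2 of 5 erythroid marker genes, and WT-enriched peaks at none of them. With 5 or 6 genes a list and a background of 62.6% (50.9% under 20 kb and 72.4% from 20 to 100 kb), no order of the cell types is read from these counts. The *Smyd1-KO* list held 25745 peaks and the WT list 106, and 25.4% and 0.943% of them covered a TSS of any gene. The parts of cell composition, sequencing depth and library quality in the peaks at the 9 genes were not tested. *Smyd1* itself had 2 *Smyd1-KO*-enriched peaks, neither within 3 kb of a TSS, and no WT-enriched peak. A list of differential peaks does not show the null allele or the tissue, so neither label could be checked.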

How the data were processed

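Hearts were profiled by ATAC-seq in 2 *Smyd1-KO* and 2 WT libraries. Per the labels, the authors used BWA-MEM for alignment to mm10, HOMER 4.10.3 for peak calling and ChIPseeker 1.20.0 for annotation. The header of the study's own copy of each list names a combined tag directory per genotype and a 2-fold cutoff between them. The authors' deposited value is a signal, a tag value for each 149-bp peak. In the WT list 12.3% of scores fell on half-tag steps, against 100% in the *Smyd1-KO* list, so scores were not set against each other across lists. The labels give a nominal 100000000 reads for each sample, the depth reached per library is unknown from the lists, and treatment of duplicates, multiply mapped reads and the Tn5 offset is not given in the sources used here.

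Here, peaks were assigned to genes of GENCODE M21 (21938 protein-coding genes outside the mitochondrial genome) with Python 3.11.15 and pandas 2.3.3, by any overlapping base, and the assignment was tested on simulated data. Distances ran from the nearer peak edge. Sequences came from the RefSeq GRCm38.p6 genome, whose chromosomes match mm10; UTR bases and the *Hbegf* sequence were left out. Of the pathway lists, the genes without a peak, with the most peaks and with the highest score were named; others were named after their values were seen. Members and lists were chosen with earlier results of these data known. Alternatives changed the window, TSS set, score threshold, overlap, gene assignment and repeat filter.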

Additional observations from a re-analysis of the deposited data

How the results depend on the processing

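No paired analysis was possible because the lists were made from combined libraries, and leaving out a replicate was impossible for the same reason. The number of genes with a *Smyd1-KO*-enriched peak stayed at 8 or 9 of 9 under all 8 alternatives. It was 8 with scores at or above the list median, where *Egfr* had none, and with each peak counted only for its nearest gene, where *Has2* had none. The number of peaks fell from 31 to 16 within 3 kb of a TSS only, to 12 with scores at or above the median and to 15 with the nearest gene only. With at most 10% repeated 32-base words, the number of peaks was 28, with 7 each at *Nrg1* and *Erbb4*. The number of WT-enriched peaks rose from 0 to 1 within 50 kb. The share of protein-coding genes with a peak, 62.6% (exact Clopper-Pearson interval 62 to 63.2%, counting error only), was 56.7% with 3 kb or the gene body, 51.2% with 3 kb only, 79.2% with 50 kb, 61.8% with TSSs of protein-coding transcripts, 51.5% with scores at or above the median and 50.9% with the nearest gene only. The other EGF-family ligands fell from 5 to 3 with scores at or above the median. The remaining pathway lists stayed within 1.5 times their counts. Peaks per gene ranged from 2 to 8 at *Nrg1*, 1 to 9 at *Erbb4*, 1 to 3 at *Bmp10* and *Hbegf*, 0 to 3 at *Egfr*, 1 to 5 at *Erbb2* and *Erbb3*, 0 to 4 at *Has2* and 3 to 5 at *Vcan*. Motif counts ranged from 1 to 9 for GATA, 1 to 12 for NK2, 0 to 7 for the control, 1 to 4 for TEAD, 0 to 3 for T-box, 0 to 2 for RBPJ and 1 to 2 for MEF2. The pathway, motif and single-gene alternatives were added after the data were seen.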
